A study of Mus musculus with 161 samples.

Results

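The cytosolic ribosomal protein genes were taken as every symbol of the deposited bulk RNA-seq matrix that reads Rpl or Rps followed by a digit, together with Rplp0, Rplp1, Rplp2 and Rpsa, after removal of symbols ending in -ps (pseudogenes) and of the Rps6k kinases. This rule found 84 of the 8307 genes of the matrix. They comprised 42 proteins of the large subunit, 31 of the small subunit and the 3 stalk proteins, that is 76 of the 77 proteins listed for the cytosolic ribosome; the remaining protein, Rpl24, was not analysed here. The other members were 4 paralogs (Rpl22l1, Rpl36al, Rpl7l1 and Rps27l), Rps19bp1, which is not a ribosomal protein but a protein that binds Rps19, and 3 further symbols, of which Rps3a2 and Rps3a3 are processed pseudogenes and Rps12l2 had no annotation in the reference used.

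The cells were macrophages grown with macrophage colony stimulating factor from the bone marrow of wild-type C57BL/6J mice 6 to 10 weeks old, and all groups shared this origin and base medium. On day 7 they were left unpolarized (M0), treated with 100 ng/mL lipopolysaccharide and 25 ng/mL interferon-γ (M1), or treated with 25 ng/mL interleukin-4 (M2). After 24 h of cytokines, M1 and M2 cells were washed and then kept in the same cytokines, given the opposite ones (M1 → M2, M2 → M1) or returned to medium without cytokines (M1 → M0, M2 → M0); times are counted here from the first addition of cytokines, so that 48 h and 96 h are 24 h and 72 h after the wash. Bulk RNA-seq covered 145 libraries of 48 conditions (45 of them with 3 biological replicates, 48 h M0 with 2, and 96 h M0 and 28 h M2 → M1 with 4), ATAC-seq, a measure of open chromatin, covered 9 libraries of 3 conditions, and single-cell RNA-seq covered 7 libraries of 1 condition each.

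A cytosolic ribosome is built from ribosomal RNA and a large set of proteins, nearly all needed in the same amount, so that their genes are usually expressed together and at high levels. The mRNAs start with a run of pyrimidines, the 5′ terminal oligopyrimidine (TOP) tract, through which mTOR signalling and the RNA-binding protein Larp1 control their translation and stability. MYC drives transcription of these genes and of the factors that assemble ribosomes in growing cells.

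Bulk values are FPKM, fragments normalized to transcript length in kilobases and to the number of mapped fragments, so levels of different genes can be set side by side per length. Differences are on the log2(FPKM + 1) scale with the standard error (SE) and were tested with limma across all 8307 genes; a gene was called where the Benjamini-Hochberg adjusted p was under 0.05. FPKM values sum to 354030 to 710080 per library, and no counts were analysed here, so the depth is unknown. In bulk RNA, fewer cells of a type and less RNA per cell cannot be told apart. The macrophage markers Csf1r, Cd68, Lyz2, Itgam and Emr1 were present in every library, the lowest value being 124 FPKM for Csf1r. Libraries numbered 1 had the lowest ribosomal protein level of their condition in 42 of 48 conditions, by a median of -0.24 on the log2 scale against the others. Many processed copies of these genes lie elsewhere in the genome, and reads that also match such copies make single values of short ribosomal protein genes uncertain.

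The mean of a member over all 145 libraries ranged from 6.32 FPKM for Rps3a3 to 892 FPKM for Rplp1, a stalk protein that recruits elongation factors. Rplp1 was followed by Rps9 at 723, Rpl32 at 589.3, Rps12 at 521 and Rpl13a at 516 FPKM. The members of lowest mean were, after Rps3a3, Rps3a2 at 10.3, Rps12l2 at 15.2, Rps19bp1 at 23.4 and Rpl7l1 at 28.4 FPKM. Levels moved together: over the 48 condition means, the Pearson correlation of a ribosome component with the median of the other members had a median of 0.98 and was above 0.9 for 73 of 76. These condition means share libraries, and the values are a description. The least alike members were Rps19bp1 (-0.43), Rpl7l1 (-0.11), Rps24 (0.51), Rps27l (0.59) and Rpl41 (0.83). The moderated F test over the 48 conditions called 84 of 84 members, where 98.4% of all genes were called.

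Of the 76 ribosome components, 47 had their lowest condition mean in 24 h M1, and 53 had their highest at 26 to 30 h in M2 → M1, that is 2 to 6 h after M2 cells received M1 cytokines. As a share of FPKM 24 h M1 was also lowest by mean, but the high place of M2 → M1 held only for FPKM as deposited. Library sums of FPKM were 525730 to 663760 at 26 to 30 h of M2 → M1 and 413270 to 459500 in 24 h M2. At 30 h of M2 → M1 the share in the members was below that of 24 h M2. Members made up between 1.43% and 7.49% of the summed FPKM of a library. In 0 h M0 the share was 4.87%, 5.30% and 6.62% in the 3 libraries, and in 24 h M0 it was 5.17%, 5.63% and 6.21%. In 24 h M1 it was 1.43%, 2.08% and 1.85%, below every M0 library, and in 24 h M2 it was 6.19%, 6.48% and 6.98%. At 24 h the mean was 5.67% ± 0.52 (SD, n = 3) for M0, 1.79% ± 0.33 (SD, n = 3) for M1 and 6.55% ± 0.40 (SD, n = 3) for M2.

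**Figure D1:**
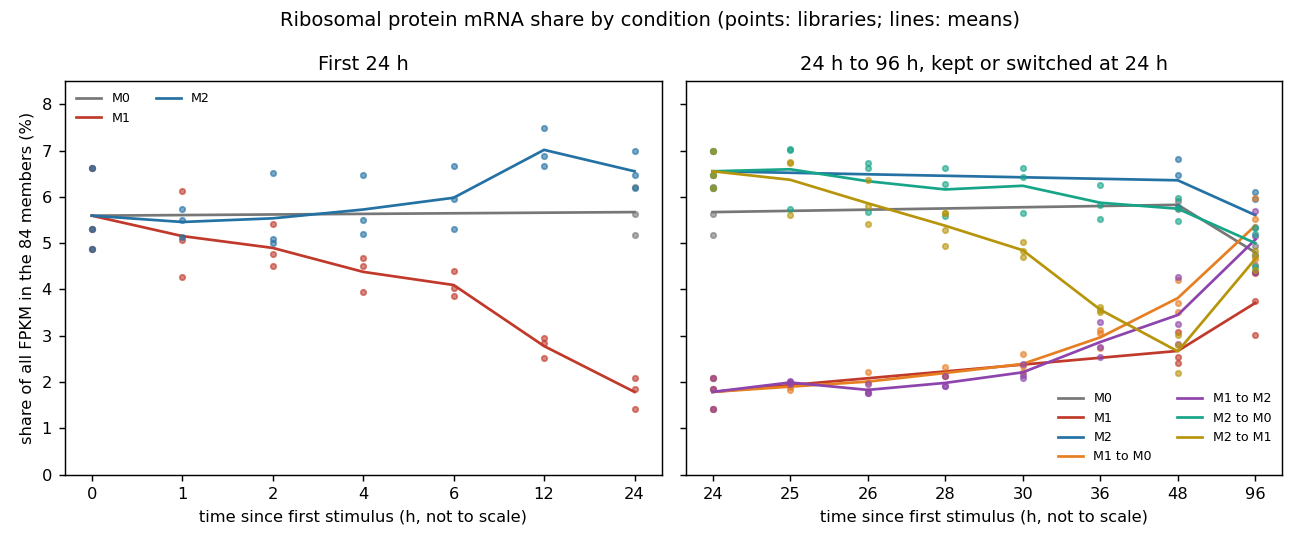
Percent of the summed FPKM of a bulk library that lies in the 84 ribosomal protein genes, against hours since the first cytokines, with points for libraries and lines for condition means of each treatment. The share reached its lowest point, 1.43% to 2.08%, in 24 h M1, and was between 6.19% and 6.98% in 24 h M2. It was higher again by 96 h in M1 → M0 and M1 → M2, and also in M1 kept in cytokines, at 3.02% to 4.35%.

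Promoters are shown for members that the results below turn on, to give the sequence around the start of transcription where TOP mRNAs begin. Each runs from 70 bases before to 20 bases after the RefSeq start on GRCm38.p6, 5′ to 3′ on the gene's strand, and the longest run of C and T that touches the bases from 5 before to 15 after the start is in capitals. Rps9 had the highest mean FPKM of the members with a promoter entry, and Rpl10a, with 2 annotated starts, and Rps15 were among the members with the largest fall in 24 h M1. Rpl35 and Rpl28 are shown because they hold CTTTCC at the start and are among the 10 largest falls; they were chosen after their values were seen.
Rps9: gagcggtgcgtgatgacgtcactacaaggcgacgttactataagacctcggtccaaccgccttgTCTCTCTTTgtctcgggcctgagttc
Rpl10a, upstream start: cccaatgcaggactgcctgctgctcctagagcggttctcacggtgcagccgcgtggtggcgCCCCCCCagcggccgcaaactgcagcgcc
Rpl10a, downstream start: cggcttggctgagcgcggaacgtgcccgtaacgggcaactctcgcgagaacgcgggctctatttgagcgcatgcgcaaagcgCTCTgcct
Rps15: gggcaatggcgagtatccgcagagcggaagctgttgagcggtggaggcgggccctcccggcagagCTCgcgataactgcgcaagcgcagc
Rpl35: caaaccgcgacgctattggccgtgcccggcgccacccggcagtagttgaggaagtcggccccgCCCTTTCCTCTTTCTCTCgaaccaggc
Rpl28: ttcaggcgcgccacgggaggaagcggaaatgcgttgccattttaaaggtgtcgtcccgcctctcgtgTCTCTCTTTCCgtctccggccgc

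The windows lie at chr7:3703971-3704060 (plus strand) for Rps9, at chr17:28328401-28328490 and chr17:28328495-28328584 (plus strand) for Rpl10a, at chr10:80292361-80292450 (plus strand) for Rps15, at chr2:39005112-39005201 (minus strand) for Rpl35 and at chr7:4792895-4792984 (plus strand) for Rpl28. The marked run was 18 bases long in Rpl35, 11 in Rpl28 and 9 in Rps9, and 7 and 4 at the starts of Rpl10a and 3 in Rps15. Of the 76 ribosome components, 56 had at least 1 entry, with 66 promoters in all. CTTTCC or CTTTTC, searched on the sense strand from 5 bases before to 15 after the start, was found in 18.2% of these promoters, in 1.49% of the 7902 promoters of genes of the bulk matrix and in 1.37% of all 32851 promoters of the table. CCGGAAG, the core bound by ETS factors such as Gabpa, was found on either strand of the 300-base window in 37.9%, against 19.3% for genes of the bulk matrix and 8.86% of all promoters. AAGATGG, the YY1 core, was found in 16.7%, against 7.77% and 6.34%. TATAAA was found in 7.58%, above the 4.39% of the bulk matrix and below the 8.32% of all promoters. The 12 genes with CTTTCC or CTTTTC at a start had a median log2 difference of -1.59 between 24 h M1 and 24 h M0, and the 44 without had -1.45, with ranges of -2.02 to -1.04 and -3.11 to -0.06. Split instead by a marked run of 8 or more C or T, a split added after the data were seen, the order was the other way, with -1.36 for the 25 genes with such a run and -1.51 for the 31 without. A match of letters is a description and not a bound site.

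The first comparison asks how M1 cytokines act on the members over time. At 24 h of M1 cytokines 79 of 84 members were lower than in 24 h M0 and 1 was higher, where limma called 25.2% of all genes lower and 35.4% higher. The median difference of the members was -1.42 on the log2 scale, against 0.10 for all genes. The libraries of the 79 members did not overlap between the groups, where 26.7% of all genes had no overlap in this direction. Of the members, 70 were lower by at least 1 on the log2 scale. By subunit, 30 of 31 small subunit proteins fell (median -1.47), as did 41 of 42 large subunit proteins (median -1.45) and all 3 stalk proteins (median -1.25).

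Rpl10a, a large subunit protein at the L1 stalk, had the largest fall. It measured 136, 191 and 208 FPKM in the 3 libraries of 24 h M0 and 13.6, 25.6 and 21.0 FPKM in 24 h M1. The groups were far apart, and the difference was -3.11 (SE 0.21, adjusted p = 6.0e-26). Rpl3, which lies at the peptidyl transferase centre, measured 171, 203 and 228 FPKM in 24 h M0 and 24.6, 42.9 and 33.5 FPKM in 24 h M1. Every M1 library was again below every M0 library, with a difference of -2.56 (SE 0.18, adjusted p = 3.9e-24). Rps15, at the head of the small subunit, measured 517, 509 and 742 FPKM in 24 h M0 and 102, 167 and 135 FPKM in 24 h M1. Its difference was -2.13 (SE 0.24, adjusted p = 3.5e-13). Rpl36a and Rpl21 followed, at -2.10 and -2.08.

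The stalk proteins and Rpsa fell less than these. Rplp1 measured 784, 906 and 1354 FPKM in 24 h M0 and 334, 543 and 489 FPKM in 24 h M1. Rplp0, the base of the stalk, measured 342, 384 and 499.1 FPKM against 132, 204 and 182 FPKM, and Rplp2 measured 297, 288 and 336 FPKM against 92.6, 137 and 128 FPKM. None of the stalk proteins overlapped between the groups. Rpsa, the laminin receptor-like protein of the small subunit, measured 128, 141 and 181 FPKM in 24 h M0 and 34.6, 50.3 and 50.4 FPKM in 24 h M1, also without overlap.

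Rps24, which acts in processing of the small subunit's RNA, measured 327, 317 and 550 FPKM in 24 h M0 and 327, 409 and 377 FPKM in 24 h M1. Its groups overlapped, and the difference was -0.06 (SE 0.19, adjusted p = 0.82), while under quantile normalization it was -0.52 (adjusted p = 0.0017). Rpl41, the smallest ribosomal protein, differed by -0.32 (adjusted p = 0.24), and by -0.75 (adjusted p = 8.2e-04) under quantile normalization. These were the ribosome components not called, and the calls of both depended on the scaling. Scaling each library to the same sum over genes other than the members moved the median of all genes from 0.10 to -0.30 and gave 82 members lower and 0 higher, with 1490 genes higher and 3936 lower in all against 2937 and 2092 otherwise.

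**Figure D2:**
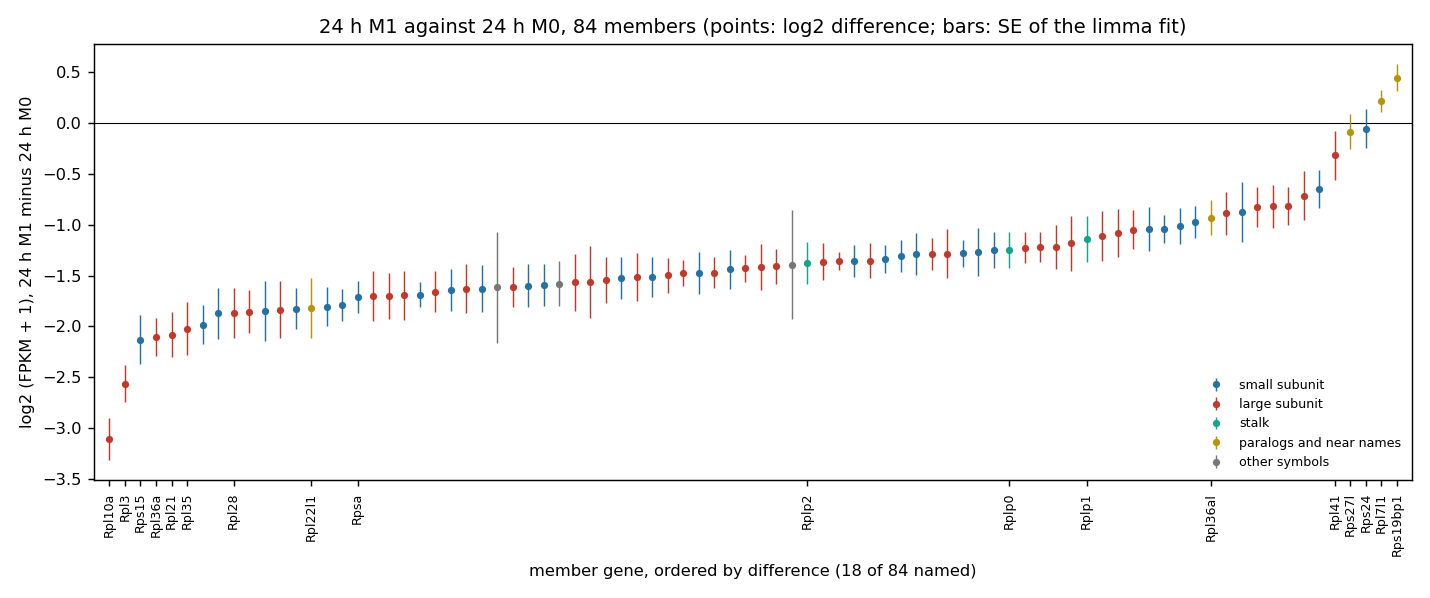
Difference on the log2(FPKM + 1) scale between 24 h M1 and 24 h M0 for each of the 84 members in rank order, with bars for the standard error, colours for the subgroup and names for some members. Values run from -3.11 for Rpl10a to 0.45 for Rps19bp1, with the median of the members at -1.42.

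The paralogs differed from one another. Rpl22l1, the paralog of Rpl22, measured 35.9, 66.0 and 57.9 FPKM in 24 h M0, 12.9, 14.9 and 14.003 FPKM in 24 h M1 and 83.0, 85.7 and 81.6 FPKM in 24 h M2. The 3 groups did not overlap, with M1 lowest and M2 highest. Rpl22 itself measured 238, 295 and 303 FPKM in 24 h M0 and 87.6, 145 and 130 FPKM in 24 h M1. Rpl36al, the paralog of Rpl36a, measured 47.6, 63.7 and 65.3 FPKM in 24 h M0 and 22.3, 34.8 and 35.1 FPKM in 24 h M1, with no overlap. Rps27l, a p53-inducible paralog of Rps27, measured 127, 173 and 155 FPKM in 24 h M0 and 114, 165 and 150 FPKM in 24 h M1. The groups of Rps27l overlapped and the difference was -0.09 (adjusted p = 0.68), while scaling to the sum of the other genes gave -0.52 (adjusted p = 0.0026). Rps27 measured 219, 248 and 320 FPKM against 81.5, 134 and 103 FPKM and did not overlap. Rpl7l1, the paralog of Rpl7 that acts in assembly of the large subunit, measured 18.5, 23.1 and 23.7 FPKM against 22.4, 28.4 and 25.5 FPKM, with overlap and a difference of 0.22 (adjusted p = 0.069). Rps19bp1 measured 13.7, 16.8 and 18.2 FPKM in 24 h M0 and 19.2, 25.3 and 22.7 FPKM in 24 h M1. It rose by 0.45 (adjusted p = 0.0031), but the difference was 0.04 when libraries were scaled to the sum of the other genes.

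In the first hours the sign depended on the scaling. At 2 h of M1 cytokines 6 members were higher than in 0 h M0 and 0 lower, where 24.0% of all genes were higher. With the replicate number as a block 18 were higher, where 2273 of the 8307 genes were. At 6 h, 10 were higher and 0 lower, where 38.4% of all genes were higher. The block gave 24 higher, where 3434 of the 8307 genes were. Under quantile normalization 0 were higher, and 42 members were lower at 2 h and 74 at 6 h, where 2941 and 3468 of the 8307 genes were lower. Under the sum of the other genes 5 and 57 members were lower, but this scaling moved all genes: 3980 and 4805 of them were lower, and at 6 h the median of all genes was -0.50 and that of the members -0.45. The median difference of the members at 6 h was 0.20 as deposited (all genes 0.11) and -0.65 under quantile normalization (all genes -0.17). Rps20 measured 206, 360 and 316 FPKM in 0 h M0 and 428, 494 and 438 FPKM at 6 h M1, all M1 libraries being above the M0 ones, and rose by 0.66 (SE 0.18, adjusted p = 5.7e-04). The share of FPKM in the members was 3.85%, 4.03% and 4.41% at 6 h, below every 0 h M0 library. The calls rested on single libraries. At 2 h the count was 0 without 0 h M0 replicate 1, 17 without 0 h M0 replicate 3, 2 without 2 h M1 replicate 2 and 3 without 2 h M1 replicate 3. At 6 h it was 2 without 0 h M0 replicate 1, 24 without 0 h M0 replicate 3 and 5 without 6 h M1 replicate 3.

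At 12 h of M1 cytokines 39 members were lower than in 0 h M0 and 1 was higher, where 27.3% and 37.1% of all genes were called, and the median was -0.44. The libraries of 26 members had no overlap and were lower, where 27.4% of all genes had no overlap in that direction. Rpl10a measured 148, 194 and 229 FPKM in 0 h M0 and 52.1, 70.9 and 75.7 FPKM at 12 h, without overlap, and fell by 1.504 on the log2 scale. Rpl3 (-0.85), Rps15 (-0.78), Rpsa (-0.76) and Rpl28 (-0.75) followed. Rps24 measured 401, 303 and 548 FPKM in 0 h M0 and 599, 456 and 784 FPKM at 12 h, so the groups overlapped. It was higher by 0.56 (adjusted p = 0.0086), while quantile normalization gave -0.22 (adjusted p = 0.19). Under quantile normalization 79 members were lower, where 3248 of the 8307 genes were, and with the sum of the other genes 81, where 4839 were. The count of lower members was 14 without 0 h M0 replicate 3 and 22 without 12 h M1 replicate 1. Against 0 h M0, 24 h M1 had 78 members lower and 1 higher, where 25.2% and 35.9% were called, with a median of -1.40. Between 24 h M0 and 0 h M0 limma called 0 of 84 in either direction, where 0.626% of all genes were higher and 1.01% lower. The count was 5 at an unadjusted limma p under 0.05, and the share of all genes at that threshold was not counted.

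**Figure D3:**
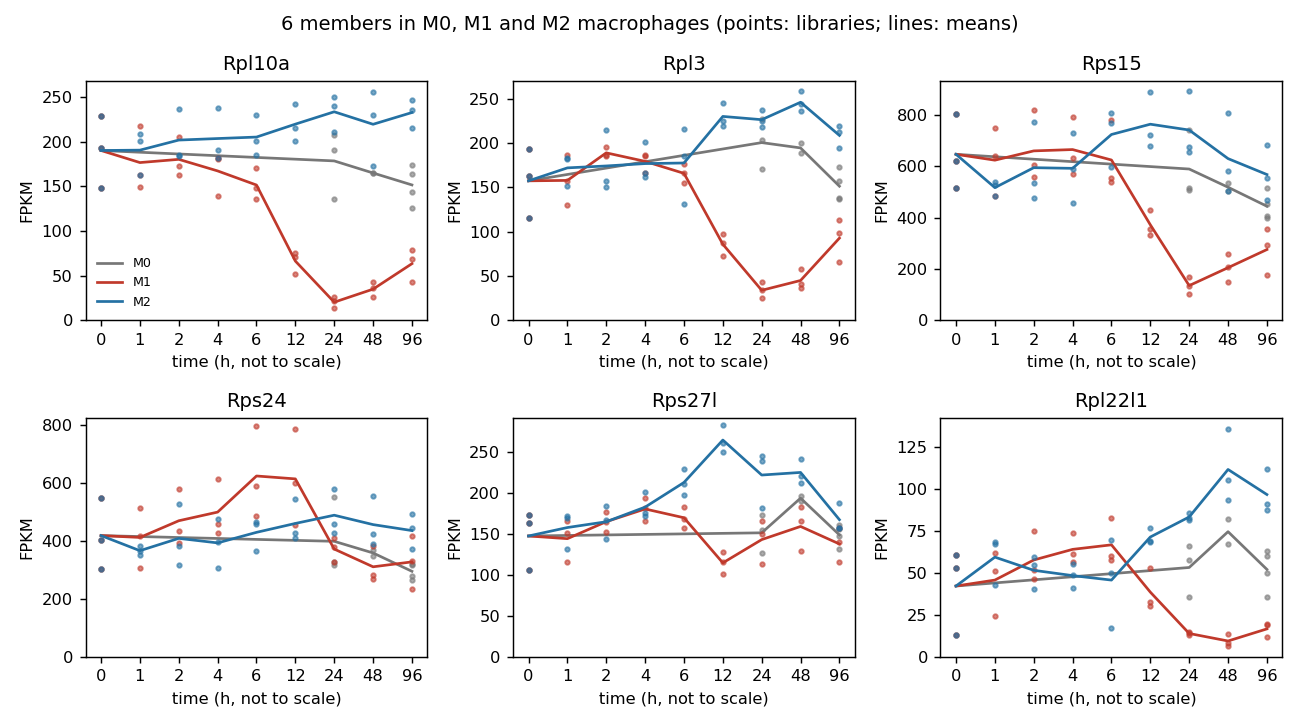
FPKM of 6 members by library against hours (not to scale) in M0, M1 and M2, on linear axes, with lines through condition means. Rpl10a and Rpl3 were lower at 12 h than at 0 h and lower still at 24 h of M1 cytokines, Rps24 at 24 h M1 lay between 327 and 409 FPKM, within its M0 range, and Rpl22l1 lay between 81.6 and 85.7 FPKM in 24 h M2.

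Other lists of genes were read in the same comparison of 24 h M1 with 24 h M0, as counts and medians. All 19 of the 19 translation factors measured fell, with a median of -1.18. Eef1a1, which carries aminoacyl-tRNA to the ribosome, was at 295 ± 75.8 FPKM in 24 h M1 and 1917 ± 482 FPKM in 24 h M0 (SD, n = 3), a difference of -2.70, and Npm1, a nucleolar chaperone, differed by -1.70. Fau, a fusion protein that is cleaved to release a ribosomal protein, and Gnb2l1, a protein bound to the small subunit, fell as well, by 1.04 and 1.63 on the log2 scale. Of the 24 ribosomal protein pseudogenes 19 fell and 0 rose (median -1.47). Of 31 ribosome biogenesis factors 19 fell and 3 rose (median -0.40), among them Dkc1 and Ncl at -1.34 and -1.23. Of 17 regulators around mTOR and MYC 5 fell and 5 rose: Myc was at 0.93 ± 0.60 FPKM in M1 and 8.44 ± 2.30 in M0 (SD, n = 3), and Mxd1, a MYC antagonist, differed by 3.35 and Larp1 by 1.16. Of 72 proteins of the mitochondrial ribosome 20 were higher and 8 lower (median 0.16), and of 73 nuclear genes of oxidative phosphorylation 9 were higher and 14 lower (median -0.04). All genes had a median of 0.10.

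Marker genes of other cells moved as well. Of 20 genes of the cell cycle 19 were lower and 0 higher in 24 h M1, and their summed level was 174 to 231 FPKM against 692 to 793 FPKM in 24 h M0. Of 10 markers of neutrophil precursors 8 were lower, with sums of 20.7 to 40.0 FPKM in 24 h M1. The same sum was 22.5 to 348 FPKM for 24 h M0 and 991 to 2790 FPKM at the start. The 11 macrophage markers measured summed to 7201 to 10432 FPKM in 24 h M1 and 11377 to 13142 in 24 h M0, 4 of them being higher and 2 lower. The 2 fibroblast markers measured summed to 0.83 to 25.6 FPKM in 24 h M1 and 1.73 to 34.3 in 24 h M0, and the only B cell marker measured to 0.47 to 1.16 against 65.1 to 90.9 FPKM. The part of these markers in the ribosomal protein result was not tested in bulk. Across the 76 ribosome components, transcript length and the difference had a Pearson correlation of -0.03, given as a description across genes, and the 1869 genes under 1 kb had a median difference of 0.06.

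The comparison with IL-4 asks whether M2 cytokines acted on the same genes. At 24 h, 11 of 84 members were higher in M2 than in M0 and 0 lower, where 18.5% of all genes were higher. With the replicate number as a block 29 were higher, where 1931 of the 8307 genes were. The median was 0.30, against 0.02 for all genes. The members higher by the largest amounts included Rpl36al (0.62), Rps18 (0.59), Rps27l (0.55) and Rpl8 (0.52), and Rpl22l1 differed by 0.68 (adjusted p = 0.063). Rps27l measured 182, 246 and 239 FPKM in 24 h M2, above the 127, 173 and 155 FPKM of 24 h M0 (adjusted p = 0.0081). The count was 3 without 24 h M0 replicate 1, 22 without 24 h M0 replicate 3, 4 without 24 h M2 replicate 2 and 6 without 24 h M2 replicate 3, and 4 under quantile normalization. At 6 h of IL-4, 5 members were higher than in 0 h M0 and 0 lower, where 25.6% of all genes were higher. The block gave 9 higher, where 2439 of the 8307 genes were. Rpl7l1 and Rps19bp1 rose by 0.69 each and Rps27l by 0.56. The count at 6 h was 3 without 0 h M0 replicate 1, 8 without 0 h M0 replicate 3 and 13 without 6 h M2 replicate 1. Between 24 h M1 and 24 h M2, 81 members were lower in M1 and 0 higher, where 30% and 36.4% of all genes were called, with a median of -1.68.

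By 96 h the members differed less between M1 and M0. In 96 h M1, 51 members were lower than in 96 h M0 and 2 higher, where 22.3% and 30% of all genes were called, with a median of -0.53. Rpl22l1 measured 35.4, 50.04, 63.0 and 60.1 FPKM in 96 h M0 and 11.9, 18.7 and 19.3 FPKM in 96 h M1, without overlap, and fell by 1.59 on the log2 scale. Rpl10a measured 144, 125, 174 and 164 FPKM against 43.0, 78.8 and 68.1 FPKM, also without overlap, and fell by 1.28. Rps19bp1 and Rpl7l1 were higher, by 0.52 and 0.36. In this comparison 20 of 20 cell cycle genes were lower (median -1.69), as were both fibroblast markers measured, with sums of 0.025 to 0.81 FPKM in 96 h M1 and 18.2 to 128 FPKM in 96 h M0, and their part in the result was not tested. The count of lower members was 16 without 96 h M1 replicate 1 and 24 without all libraries numbered 1. In 96 h M2, 53 members were higher than in 96 h M0 and 0 lower, where 20.4% and 14.9% were called, with a median of 0.49 and with Rpl22l1 (0.91) and Rpl12 (0.89) at the top. The count was 26 without 96 h M2 replicate 2, 30 without 96 h M2 replicate 3 and 32 without 96 h M0 replicate 2, 15 under quantile normalization and 14 under the sum of the other genes. Between 96 h and 24 h M0 limma called 0 members, where 1.34% of all genes were higher and 2.82% lower, with a median of -0.25. Without 24 h M0 replicate 1 the count of called members was 1. At an unadjusted limma p under 0.05 there were 15 members, and the share of all genes at that threshold was not counted.

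Withdrawal of M1 cytokines asks whether the low level returned. The share of FPKM in the members was 2.23%, 2.60% and 2.35% at 30 h, 2.73%, 3.12% and 3.05% at 36 h, 3.52%, 4.21% and 3.71% at 48 h and 4.65%, 5.98% and 5.51% at 96 h of M1 → M0. In M1 kept in cytokines it was 2.41%, 3.08% and 2.53% at 48 h and 3.02%, 4.35% and 3.76% at 96 h. At 48 h the M1 → M0 libraries were all above those kept in M1.

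At 48 h, 24 members were higher in M1 → M0 than in M1 and 1 lower, where 10.4% and 13.4% of all genes were called. With the replicate number as a block 54 were higher, where 1213 of the 8307 genes were. Rpl3 measured 36.3, 57.6 and 40.4 FPKM in 48 h M1 and 75.1, 105 and 77.5 FPKM in 48 h M1 → M0, without overlap, and rose by 0.93 (adjusted p = 1.7e-05). The count was 37 without 48 h M1 → M0 replicate 1, 7 without 48 h M1 → M0 replicate 2, 9 without 48 h M1 replicate 1, 45 without 48 h M1 replicate 2 and 14 without 48 h M1 replicate 3. At 96 h, 56 members were higher in M1 → M0 than in M1 and 2 lower, where 19.4% and 22.8% of all genes were called, with a median of 0.57. Rps21 measured 181, 363 and 307 FPKM in 96 h M1 and 525, 597 and 590 FPKM in 96 h M1 → M0, and Rpl10a 43.0, 78.8 and 68.1 against 111, 141 and 133 FPKM. Both were without overlap and rose by 1.06 and 1.05. Rps19bp1 and Rpl7l1 fell by 0.43 and 0.41. The 20 genes of the cell cycle were also higher, 20 of 20, with sums of 508 to 1160 FPKM in M1 → M0 and 103 to 259 FPKM in M1, and their part in this result was not tested. The count of higher members was 12 without 96 h M1 replicate 1 and 33 without 96 h M1 → M0 replicate 2.

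Against 96 h M0, 96 h M1 → M0 had 1 member higher, Rpl4 by 0.33, and 0 lower, where 10.7% and 7.19% of all genes were called; the median was 0.06. A p that misses the threshold does not show equal levels, and the members' differences ranged from -0.64 to 0.43. Rpl22l1 was at 20.5, 40.2 and 40.8 FPKM in 96 h M1 → M0 and at 35.4, 50.04, 63.0 and 60.1 FPKM in 96 h M0.

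M1 cells given IL-4 were compared with cells kept in IL-4. At 96 h they had been in IL-4 for 72 h and 96 h, respectively, so duration and history cannot be told apart. At 96 h, 23 members were lower in M1 → M2 than in M2 and 1 was higher, where 9.76% and 11.8% of all genes were called, with a median of -0.37. The block gave 42 lower, where 1133 of the 8307 genes were. Rpl22l1 measured 22.7, 39.4 and 30.8 FPKM in M1 → M2 and 87.5, 91.0 and 112 FPKM in M2, without overlap, and differed by -1.64 (SE 0.29). Rps27l measured 239, 234 and 220 FPKM in M1 → M2 and 158, 157 and 188 FPKM in M2, all M1 → M2 libraries being higher, and differed by 0.47 (adjusted p = 0.037). The count of lower members was 4 without 96 h M1 → M2 replicate 1, 13 without 96 h M2 replicate 2, 14 without 96 h M2 replicate 3 and 13 under the sum of the other genes.

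The reverse switch gave M1 cytokines to cells that had been in IL-4 for 24 h. The share of FPKM fell from 6.19%, 6.48% and 6.98% in 24 h M2 to 4.70%, 5.02% and 4.83% at 30 h, 3.52%, 3.55% and 3.62% at 36 h and 2.19%, 3.01% and 2.80% at 48 h. At 48 h, 72 members were lower than in 48 h M2 and 0 higher, where 29.9% and 37.2% of all genes were called, with a median of -0.93. Rpl10a measured 173, 256 and 230.5 FPKM in 48 h M2 and 27.3, 53.2 and 52.3 FPKM in 48 h M2 → M1, and Rpl3 measured 236, 259 and 244 against 35.3, 58.9 and 56.2 FPKM. Neither overlapped, and the differences were -2.33 and -2.31. Rps24 measured 390, 553 and 424 FPKM in 48 h M2 and 424, 724 and 690 FPKM in 48 h M2 → M1, with overlap and a difference of 0.40 (adjusted p = 0.059).

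The difference between this response and that of cells without earlier IL-4 was tested directly, as the change from 24 h M2 to 48 h M2 → M1 minus the change from 0 h M0 to 24 h M1. It was above 0 for 12 members and below 0 for 2, where 10.9% and 11.1% of all genes were called, with a median of 0.40. With the replicate number as a block it was above 0 for 28 and below 0 for 3, where 1316 and 1383 of the 8307 genes were. The change after IL-4 also spanned a wash, new medium and a later day of culture. These cannot be told apart from the earlier IL-4. Rplp2 changed by -0.44 after IL-4 and by -1.62 without, a difference of 1.18 (SE 0.29, adjusted p = 0.0013). Rps15a changed by -0.68 and by -1.83, a difference of 1.15 (adjusted p = 0.0015). Others above 0 included Rps28, Rpl21, Rps7, Rpl17, Rpl23, Rpl10a, Rpl36a, Rps3a1 and Rps4x, from 0.99 down to 0.53. Rps27l (-0.68) and Rpl7l1 (-0.42) were below 0. In the same contrast 8 of 10 neutrophil precursor markers were above 0 (median 3.80), their sum being 991 to 2790 FPKM in 0 h M0 and 17.8 to 323 FPKM in 24 h M2, and 17 of 31 ribosome biogenesis factors were below 0 (median -0.64). The part of these markers in the result was not tested. The count above 0 was 19 without 0 h M0 replicate 2, 6 without 0 h M0 replicate 3, 4 without 24 h M1 replicate 1, 21 without 24 h M1 replicate 2, 29 without 48 h M2 → M1 replicate 1, 6 without 48 h M2 → M1 replicate 2 and 7 without 48 h M2 → M1 replicate 3, and 27 under quantile normalization. At 96 h, 46 members were higher in M2 → M1 than in M1 and 0 lower, where 7.32% and 4.71% of all genes were called, with a median of 0.65. These cells had been in M1 cytokines for 72 h and 96 h, respectively, so duration and history cannot be told apart. Rpl22l1 (1.09), Rps7 (0.996) and Rpl17 (0.99) differed the most. The count was 10 without 96 h M1 replicate 1, 25 without 96 h M2 → M1 replicate 2 and 0 in a fit of the compared groups only. Calls over all genes were not counted in that fit.

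The single-cell matrices hold unique molecular identifiers (UMIs), counts of captured mRNA molecules that do not depend on transcript length. With 1 library a condition there is no test, and intervals are exact binomial (shares) or exact Poisson (CPM, UMI counts scaled to the same library total) at 95% and cover counting error only. The 81 members with the same symbol there made up 17.6% (17.5% to 17.6%) of UMIs in the library of 0 h M0. After 6 h they made up 19.0% in M0, 14.5% in M1 and 19.3% in M2. At 24 h they made up 20.3% (20.3% to 20.3%) in M0, 6.48% (6.46% to 6.50%) in M1 and 21.4% (21.4% to 21.4%) in M2. The share in 24 h M1 was the lowest of the 7 libraries. Median UMIs per barcode were 1025 in 0 h M0 and between 1751 and 2529 in the others, with 2056 in 24 h M1 and 1751 in 24 h M0.

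The low share was found across barcodes. The quartiles of the share over the 2842 barcodes of 24 h M1 were 4.89%, 6.41% and 8.33%, and over the 2727 barcodes of 24 h M0 they were 18.4%, 21.5% and 24.9%. Thus the upper quartile of M1 lay under the lower quartile of M0. Leaving out barcodes with 3 or more UMIs of cell cycle genes (98 in M1 and 655 in M0) gave shares of 6.57% and 20.7%. Markers of neutrophil precursors made up 0.00122% of UMIs in 24 h M1 and 0.000943% in 24 h M0. Pairs of libraries shared 6 to 25 barcode sequences.

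**Figure D4:**
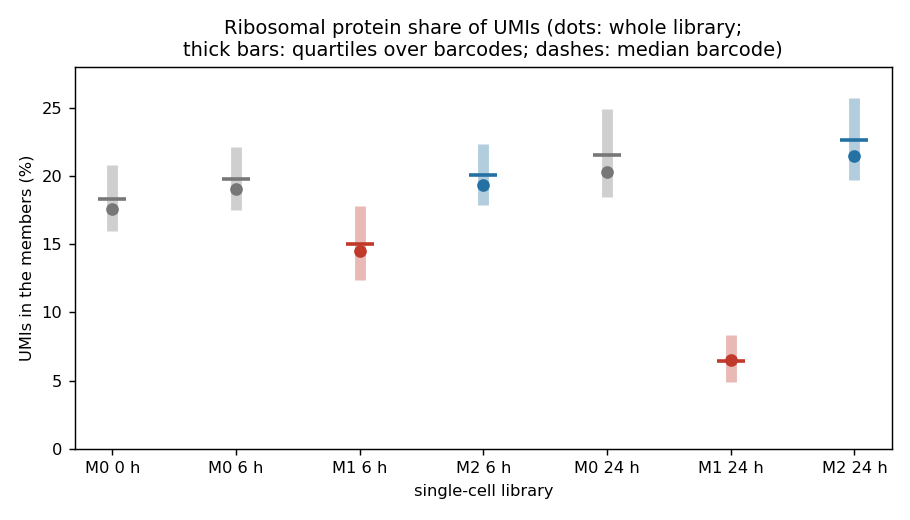
Share of UMIs in the ribosomal protein genes in each of the 7 single-cell libraries, in percent, with dots for the whole library, thick bars for the quartiles over barcodes and dashes for the median barcode. The median over barcodes was 6.41% in 24 h M1 and 21.5% in 24 h M0.

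Between 24 h M1 and 24 h M0, 77 of 81 members were at least 1.5 times lower in CPM and 0 higher, where 34.4% and 19.0% of all 7047 genes with at least 100 UMIs were, and the median log2 ratio was -1.77 against -0.25. Rpl3 was at 125 CPM (117 to 133) in M1 and 2366 CPM (2326 to 2406) in M0, and Rpl10a at 98.5 CPM (91.4 to 106) and 1588 CPM (1556 to 1621). These had the largest log2 ratios, -4.24 and -4.01, followed by Rpl22l1 (-2.76), Rpl14 (-2.56) and Rps6 (-2.53). Rps24 was at 2450 CPM (2414 to 2487) in M1 and 2195 CPM (2157 to 2234) in M0, a log2 ratio of 0.16. Rps27l (-0.45), Rps19bp1 (0.28) and Rpl7l1 (0.55) were the others whose level moved by less than the fold used, and Rpl41, at -0.996, passed it. Of the 76 ribosome components 75 were below 0. Over these 76 the log2 ratio in single cells and the bulk difference had a Pearson correlation of 0.82 and a Spearman correlation of 0.75, given as a description across genes.

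**Figure D5:**
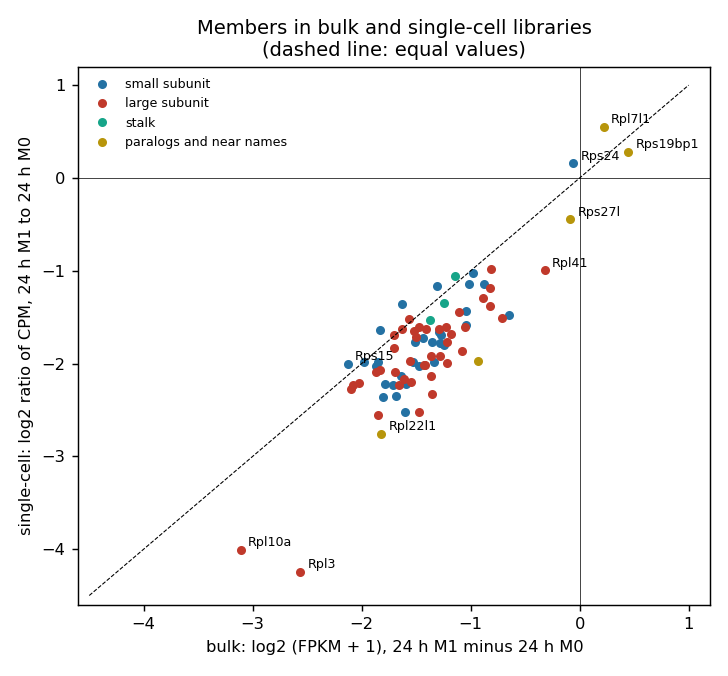
Difference between 24 h M1 and 24 h M0 for each member, in bulk on the log2(FPKM + 1) scale on the x axis and as log2 ratio of CPM in single cells on the y axis. Rpl10a and Rpl3 lie lowest on both axes, and Rps24 is at -0.06 in bulk and 0.16 in single cells.

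In 24 h M2 against 24 h M0, 2 members were at least 1.5 times higher in CPM and 0 lower, where 13.8% and 9.99% of genes were: Rpl22l1, at 473 against 198 CPM, and Rps27l, at 1509 against 985 CPM. The median log2 ratio was 0.12. At 6 h of M1 cytokines 12 members were lower and 0 higher than in 6 h M0, where 45.3% and 18.7% of genes were, with a median of -0.38 against -0.47 over all genes. At 6 h of IL-4, 0 members passed in either direction, where 8.36% of genes were higher and 9.01% lower. Between 24 h M1 and 24 h M2, 78 members were lower and 0 higher, where 39.7% and 18.5% of genes were. Between 24 h M0 and 0 h M0, 3 were higher and 1 lower, where 10.3% and 14% were.

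ATAC-seq was read at the starts of the members. Its only M0 libraries were of 0 h, so cytokines and time in culture cannot be told apart in comparisons with M0. For 96 h M1 → M0 the wash and change of medium cannot be told apart from these either. Of 133850 sites tested with edgeR, 91 lay within 500 bases of a start of a member and belonged to 81 genes; library totals ran from 1730488 to 9354620 counts. In 24 h M1 against 0 h M0, 5 sites were lower and 1 higher, where 15.6% of all sites were called in each direction, and 12.0% and 8.59% of the 9355 sites at starts of any gene of the matrix. The median difference of the 91 sites was -0.05 on the log2 scale. RNA of the members in the same comparison had a median of -1.40. The site of Rpl10a, at chr17:28327719-28329646, had 216, 199 and 223 normalized counts in 0 h M0 and 183, 166 and 146 in 24 h M1, without overlap, and differed by -0.38 (edgeR adjusted p = 0.021). The site of Rps16, at chr7:28350029-28351240, differed by -0.43 (adjusted p = 0.019), and that of Rpl39, at chrX:37084542-37086089, by -0.40 (adjusted p = 0.025). The site of Rpl22l1, at chr3:28804968-28806194, was higher by 0.37 (adjusted p = 0.035), at 200.1, 257 and 234 normalized counts in 0 h M0 and 351, 237 and 361 in 24 h M1, and these overlapped. The main sites of Rpl3 (-0.23, adjusted p = 0.20), Rps15 (-0.10) and Rps24 (-0.04) were not called. The count of lower sites was 3 without 0 h M0 replicate 1, 2 without 0 h M0 replicate 2, 1 without 0 h M0 replicate 3, 3 without 24 h M1 replicate 1, 3 without 24 h M1 replicate 2 and 2 without 24 h M1 replicate 3; without 0 h M0 replicate 2 and without 24 h M1 replicate 2, more sites were higher (8 and 11) than lower.

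In 96 h M1 → M0 against 0 h M0, 22 member sites were lower and 2 higher, where 8.96% and 9.81% of all sites were called and 20.2% and 3.53% of the sites at starts of any gene. The median was -0.20, against -0.14 for the sites at starts of any gene. The main site of Rpl3, at chr15:80082712-80084132, had 165, 173 and 144 normalized counts in 0 h M0 and 94.4, 110 and 87.9 in 96 h M1 → M0, without overlap, and differed by -0.72 (edgeR adjusted p = 1.9e-05), while its RNA in 96 h M1 → M0 was 101, 164 and 138 FPKM. In 96 h M1 → M0 against 24 h M1, 17 sites were lower and 2 higher, where 11.1% and 10.9% of all sites and 19.8% and 5.57% of those at starts were called. The median was -0.15 for member sites and -0.14 for those at starts of any gene. In both comparisons the count of lower member sites was near the share of sites at starts. The first count was 13 without 96 h M1 → M0 replicate 1 and 13 without 96 h M1 → M0 replicate 3. The second was 10, 11 and 7 without 96 h M1 → M0 replicates 1, 2 and 3, and 6 with DESeq2.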

How the data were processed

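Bulk values were deposited by the authors as log10(FPKM + 1), from TopHat 2.0.14 alignments to mm10 and Cuffnorm 2.2.2 normalization, for genes that reached 10 FPKM in at least 1 library. They were converted back to FPKM and tested on log2(FPKM + 1), a pseudocount of 1, with limma 3.58.1 (trend, 1 fit over 48 conditions, Benjamini-Hochberg), since the Cuffdiff test of the study needs reads. A fold change on this scale understates the change of low genes. ATAC-seq counts were deposited by the authors per merged MACS2 2.1.0 peak, after removal of duplicates, and edgeR 4.0.16 was run on them, with TMM factors and the quasi-likelihood test, on sites over 10 normalized counts in at least 1 library, with DESeq2 1.42.0 as an alternative. Single-cell UMI counts were deposited by the authors from Cell Ranger and summed per library, with all barcodes kept and no doublet caller run. A gene was taken as different there at 1.5 times the CPM with at least 100 UMIs over both libraries.

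Members and gene lists were chosen with earlier results of these data known. Genes were named as the largest differences past the threshold, the paralogs, and members unlike the rest. Comparisons share libraries, above all those of 0 h, 24 h and 96 h M0, and are not independent of each other. Replicate numbers paired the bulk libraries in 14 of 18 comparisons, where libraries with one number deviated together, with correlations of 0.134 to 0.767 over the paired comparisons. In simulated data with known changes, a log2 change of 0.585 was found for 58% of the altered genes, of 1 for 90% and of 2 for 100%, in the comparison of 24 h M1 with 24 h M0, with 14 false calls over 8307 genes. Alternatives covered the pseudocount, low-value filters, 3 scalings, the replicate block, single libraries left out, the groups fitted, and for single cells the barcodes and denominator. ATAC-seq coordinates are on mm10, and promoters came from RefSeq on GRCm38.p6. Values of a few single genes are not reported here.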

Additional observations from a re-analysis of the deposited data

Results flagged for a closer look

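The response to M1 cytokines was set against that of cells with 24 h of IL-4 before in a limma interaction contrast, which tests the difference itself. In this contrast the wash, new medium and later day of culture cannot be told apart from the earlier IL-4. The difference was above 0 for 12 of 84 members and below 0 for 2, where 10.9% and 11.1% of all genes were called, so the first count was near the share of all genes. The count above 0 was 2 when only the compared groups were fitted, where calls over all genes were not counted, and 4 to 29 with 1 library left out. In the conditions with 4 libraries (96 h M0 and 28 h M2 → M1), no library stood apart in the 12 sets of values examined, which were the share of FPKM in the members and the FPKM of Rpl10a, Rpl3, Rps15, Rps24 and Rpl22l1. Conditions with fewer libraries were not examined in this way.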

How the results depend on the processing

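FPKM is relative to the whole library, and a scaling decided the sign of the smaller changes. Of the recomputed values, 263 were unchanged in direction and call or moved by less than the spread, 124 moved and 7 reversed. The causes were not tested. Depth is unknown for the bulk libraries, and the single-cell conditions had 1 library each. Pseudocounts of 0.1 and 5 and a filter at a mean of 10 FPKM changed no count by over 1.5 times.

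With median-centred libraries the count of members in the reported direction was 0 at 2 h M1, 4 at 6 h M1, 65 at 12 h M1, 50 for 48 h M1 → M0 and 18 for 24 h M2. Over all genes these counts were 1578, 2605, 3054, 1188 and 1611 with this scaling. With quantile normalization the count of members was 0 at 2 h and 0 at 6 h M1, 79 at 12 h M1, 4 for 24 h M2, 2 for 96 h against 24 h M0, 15 for 96 h M2, 74 for 48 h M1 → M0, 2 for 96 h M1 → M0 against M0 and 27 for the interaction. The counts over all genes were 1481, 2338, 3248, 1517, 345, 1459, 1380, 906 and 868 in the same order. With 1 sum for the other genes it was 0 at 2 h and 0 at 6 h M1, 81 at 12 h M1, 3 for 96 h against 24 h M0, 14 for 96 h M2, 63 for 48 h M1 → M0, 4 for 96 h M1 → M0 against M0 and 13 for M1 → M2. Over all genes these counts were 1164, 1673, 4839, 322, 789, 1557, 1565 and 486. With the replicate block it was 18 at 2 h M1, 24 at 6 h M1, 9 for 6 h M2, 29 for 24 h M2, 7 for 96 h against 24 h M0, 54 for 48 h M1 → M0, 4 for 96 h M1 → M0 against M0, 42 for M1 → M2 and 28 for the interaction, and it moved no other count by over 1.5 times. Calls over all genes with the block were 2273, 3434, 2439, 1931, 486, 1213, 1304, 1133 and 1316 in the same order. Without the libraries numbered 1 it was 1 at 2 h M1, 3 at 6 h M1, 9 for 96 h against 24 h M0, 24 for 96 h M1, 34 for 96 h M1 → M0 against M1, 5 against M0, 25 for 96 h M2 → M1 and 22 for the interaction. All genes gave 1940, 3244, 578, 1798, 1556, 1358, 787 and 1348 without these libraries. With the compared groups alone the count of members was 0 at 2 h M1, 2 at 6 h M1, 24 at 12 h M1, 27 for 96 h M1, 2 for 6 h M2, 5 for 48 h M1 → M0, 12 for 96 h M1 → M0 against M1, 9 for M1 → M2, 0 for 96 h M2 → M1 and 2 for the interaction. Calls over all genes were not counted in these smaller fits, so the lower counts cannot be read as particular to the members. DESeq2 gave 13 and 6 lower sites for 96 h M1 → M0 against 0 h M0 and against 24 h M1.

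Leaving out 1 library at a time gave 0 to 17 members at 2 h M1, 2 to 24 at 6 h M1, 14 to 50 at 12 h M1, 75 to 79 at 24 h M1 against 0 h M0, 76 to 79 against 24 h M0 and 80 to 83 against 24 h M2. It gave 3 to 13 for 6 h M2, 3 to 22 at 24 h M2, 26 to 52 for 96 h M2, 16 to 62 for 96 h M1, 0 to 0 for 24 h M0 and 0 to 1 for 96 h M0. For the switches it gave 7 to 45 for 48 h M1 → M0, 12 to 63 for 96 h M1 → M0 against M1, 1 to 1 against M0, 4 to 27 for M1 → M2, 58 to 76 for 48 h M2 → M1, 10 to 58 for 96 h M2 → M1 and 4 to 29 for the interaction. For ATAC-seq it gave 1 to 3, 13 to 18 and 7 to 16 lower sites, and in the first of these the sites called higher outnumbered the lower ones without 0 h M0 replicate 2 (2 lower) and without 24 h M1 replicate 2 (3 lower).

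The percent of FPKM in the members ranged with 1 library left out from 5.08 to 5.96 in 0 h M0, 5.40 to 5.92 in 24 h M0, 1.64 to 1.97 in 24 h M1, 6.34 to 6.73 in 24 h M2, 4.62 to 4.94 in 96 h M0, 3.39 to 4.06 in 96 h M1, 5.08 to 5.74 in 96 h M1 → M0 and 4.58 to 4.78 in 96 h M2 → M1. Without the 50 most abundant other genes it was, in the same order, 7.93, 7.90, 2.52, 8.83, 6.82, 4.85, 7.22 and 6.42. Both were chosen after seeing the data. The single-cell shares, in the order 0 h M0, 6 h M0, 6 h M1, 6 h M2, 24 h M0, 24 h M1 and 24 h M2, were 17.9%, 19.3%, 14.7%, 19.6%, 20.5%, 6.51% and 21.7% without mitochondrially encoded transcripts. They were 16.95%, 19.7%, 15.01%, 20.3%, 20.4%, 6.65% and 22.2% for barcodes of 1000 to 5000 UMIs, and 23.4%, 24.1%, 18.6%, 23.6%, 26.4%, 9.01% and 26.7% without the 50 other genes of most UMIs.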

Other observations

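Genes that build ribosomes were counted in the other comparisons as well. At 6 h of IL-4, 31 of 31 ribosome biogenesis factors were higher than in 0 h M0, with a median of 1.29 on the log2 scale, where 25.6% of all genes were higher. At 24 h 28 of 31 were higher than in 24 h M0 (median 0.77), where 18.5% of all genes were. In 48 h M2 → M1, 28 of 31 were lower than in 48 h M2 (median -1.24), where 29.9% of all genes were. At 96 h, 15 of 31 were lower in M2 → M1 than in M1 and 0 higher (median -0.42), where 4.71% and 7.32% of all genes were, and 46 ribosomal protein genes were higher. The count of 46 was 10 without 96 h M1 replicate 1 and 0 in a fit of the compared groups only. In this comparison duration in M1 cytokines (72 h and 96 h) and history cannot be told apart.

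Mitochondrial genes were read beside them. Of 72 mitochondrial ribosomal proteins 33 were higher and 0 lower at 6 h of IL-4, where 25.6% and 19.0% of all genes were, and 23 higher and 1 lower at 24 h, where 18.5% and 15.1% were. In 96 h M1, 37 were higher and 2 lower than in 96 h M0 (median 0.36), where 30% and 22.3% were. Of 73 nuclear genes of oxidative phosphorylation 29 were higher and 2 lower in 24 h M2 (median 0.40), again beside 18.5% and 15.1% of all genes, and 24 higher and 0 lower in 96 h M2, beside 20.4% and 14.9%.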
